A study of Mus musculus with 6 samples.

Results

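The genes described here are 2 groups of liver gene paralogs that were almost silent in C2C12 cells and gave reads once Kap1 was knocked down: 5 Serpina1 genes (Serpina1a, Serpina1b, Serpina1c, Serpina1d and Serpina1e) on mouse chromosome 12 and 2 Cyp2b genes (Cyp2b10 and Cyp2b13) on chromosome 7. They are 7 of the 37991 genes in the count files. They were picked because their counts were near 0 in control cells and above 0 in knockdown cells at both stages, so their knockdown-over-control values are given as a description, with no test. The rule was applied here as at most 10 counts over the 3 control libraries and at least 5 counts in each of the 3 knockdown libraries, and all 7 met it. Of the 7703 genes with any count and at most 10 control counts, 69 met it (0.896%), a share fixed by the choice and read no further. Just inside the limits were Serpina1d, with 10 control counts in all, and Serpina1e, with 7 counts in its lowest knockdown library. Just outside was the neighbouring pseudogene Gm17042, which had 0 counts in 1 knockdown library.

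C2C12 is a mouse myoblast line of the C3H strain that can be made to differentiate into myotubes by lowering the serum. Cells had received a lentivirus (LV) whose short hairpin targets luciferase (sh-Luc, the control) or Kap1 (sh-Kap1). Proliferating myoblasts (MB) were kept in medium with 10% fetal calf serum, and differentiating cells (MT) spent 48 hours in 2% horse serum with insulin, transferrin and selenium, so that stage and medium changed together. Polyadenylated cytoplasmic RNA was sequenced from 6 libraries: MB control replicates 1 and 2, MB knockdown replicates 1 and 2, 1 MT control and 1 MT knockdown. No label states whether the 2 MB replicates were grown as separate cultures, so every p-value measures only the spread between these libraries, which may be technical. In bulk RNA, more cells that express a gene and more RNA per cell cannot be told apart.

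Serpina1 genes encode alpha-1-antitrypsins, plasma proteins made by hepatocytes that trap serine proteases such as neutrophil elastase, and mice carry several near-identical copies in a row where humans have a single gene. Cyp2b genes encode cytochrome P450 enzymes that oxidise drugs and steroids in the liver. Cyp2b10 is the classical target of the nuclear receptor CAR (encoded by Nr1i3), and Cyp2b13 and its neighbour Cyp2b9 are known for higher expression in female than in male liver. KAP1, the product of Trim28, is the corepressor that KRAB zinc finger proteins bring to DNA, where it recruits enzymes that lay down repressive chromatin. Rsl1 is a KRAB zinc finger protein of this kind that holds down some sex-dependent genes of mouse liver.

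The copies differ little in sequence, and this bears on how far their reads can be told apart. Over the coding sequence, pairs of Serpina1 genes were 96.29% to 98.47% identical, and 86 of 1239 aligned positions differed in at least 1 copy. The 60 coding bases with the most such positions held 18 of them and cover the codons of the reactive centre loop, the exposed stretch that a target protease cleaves. This stretch is shown to let the copies be compared base by base, from the GENCODE M21 transcripts, 5′ to 3′ on the coding strand, with the differing positions in capitals. It spans coding positions 1101 to 1160, or 1170 to 1229 in Serpina1a, whose annotated coding sequence is longer.
Serpina1a: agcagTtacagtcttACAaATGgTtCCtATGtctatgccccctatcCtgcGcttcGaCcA
Serpina1b: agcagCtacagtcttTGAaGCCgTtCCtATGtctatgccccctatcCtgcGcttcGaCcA
Serpina1c: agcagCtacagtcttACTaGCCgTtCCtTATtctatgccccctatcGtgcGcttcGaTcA
Serpina1d: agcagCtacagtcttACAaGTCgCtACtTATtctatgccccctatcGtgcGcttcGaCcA
Serpina1e: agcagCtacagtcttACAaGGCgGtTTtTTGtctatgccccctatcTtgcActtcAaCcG
Serpina1d, the copy with the most reads in every knockdown library, shares no more of its coding sequence with the other copies than they share among themselves: 96.29% to 96.69%, against 96.29% to 98.47% for the other pairs.

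The promoters of the copies were close to each other as well: over the 250 bases before the RefSeq start, pairs of Serpina1 genes were 92.05% to 97.98% identical where aligned. The stretch next to the start is shown because all 5 copies gave reads in knockdown cells. The runs come from RefSeq on GRCm38.p6, minus strand: chr12:103863625-103863724 (Serpina1a), chr12:103738200-103738299 (Serpina1b), chr12:103904962-103905061 (Serpina1c), chr12:103773634-103773733 (Serpina1d) and chr12:103956960-103957059 (Serpina1e). Each ends at the same aligned base, which lies 6, 11, 12, 1 and 63 bases before the annotated start of the 5 genes in that order. Capitals mark TGTTTGC, a variant of the core bound by forkhead factors.
Serpina1a: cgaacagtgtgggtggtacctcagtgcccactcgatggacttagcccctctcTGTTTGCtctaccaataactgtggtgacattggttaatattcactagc
Serpina1b: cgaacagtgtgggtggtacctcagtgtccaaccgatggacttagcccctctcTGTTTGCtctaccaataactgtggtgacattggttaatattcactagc
Serpina1c: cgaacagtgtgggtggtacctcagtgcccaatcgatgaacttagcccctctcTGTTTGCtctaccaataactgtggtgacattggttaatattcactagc
Serpina1d: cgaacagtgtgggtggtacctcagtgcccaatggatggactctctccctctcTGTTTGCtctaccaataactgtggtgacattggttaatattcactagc
Serpina1e: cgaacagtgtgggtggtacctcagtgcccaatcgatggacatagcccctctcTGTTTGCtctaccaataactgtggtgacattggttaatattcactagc
Motifs were chosen after the promoters had been seen and were searched on both strands of the 250 bases before each start. The 5 Serpina1 promoters are near copies of each other, so a motif in all 5 is not 5 separate observations. The shares below are a description, with no test. TGTTTGC was present in 5 of 5 Serpina1 promoters and in 4.3% of 32851 mouse promoters of that length. CCAAT was also found in all 5, and in 33.8% of promoters, and none of its matches overlaps TGTTTGC. The TATA box motif TATAAA was in none of the 5, against 12.4% of promoters. None of these 3 motifs was in the windows of Cyp2b10 and Cyp2b13.

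Among the Cyp2b genes, the promoter of Cyp2b13 is nearly that of Cyp2b9, a copy that stayed near 0 reads. The full 250 bases are shown to make this visible, plus strand, GRCm38.p6, at chr7:26061245-26061494 for Cyp2b13 and chr7:26173159-26173408 for Cyp2b9, with the 2 bases that differ in capitals (99.2% identity).
Cyp2b13: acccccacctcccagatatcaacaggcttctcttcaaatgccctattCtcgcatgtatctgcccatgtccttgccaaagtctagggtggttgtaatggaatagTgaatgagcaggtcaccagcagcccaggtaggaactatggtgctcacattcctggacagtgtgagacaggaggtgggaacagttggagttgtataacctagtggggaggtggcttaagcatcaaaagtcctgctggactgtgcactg
Cyp2b9: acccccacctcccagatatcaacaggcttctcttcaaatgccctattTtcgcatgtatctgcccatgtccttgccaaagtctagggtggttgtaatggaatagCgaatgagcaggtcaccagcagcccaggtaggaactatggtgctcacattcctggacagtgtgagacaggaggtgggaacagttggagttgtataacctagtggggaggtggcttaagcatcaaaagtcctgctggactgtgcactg
The Cyp2b10 promoter aligned with that of Cyp2b13 at 70.95% identity. Its last 120 bases (chr7:25897538-25897657, plus strand) are shown with capitals on CAGCTG, an E-box found in 13.0% of promoters and not in the windows of Cyp2b13 or Cyp2b9.
Cyp2b10: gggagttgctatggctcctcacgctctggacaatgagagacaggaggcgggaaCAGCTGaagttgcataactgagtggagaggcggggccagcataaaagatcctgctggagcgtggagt

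The 6 libraries held 36247530 to 49839994 reads on genes, so the floor of 3 counts that stands in for a 0 equalled 0.0602 to 0.0828 CPM (counts scaled to library size). Trim28 was at 587 and 417 CPM in MB control replicates 1 and 2 and at 152 and 101 CPM in the MB knockdown libraries. In MT it was at 382 CPM in the control and 122 CPM in the knockdown. Its knockdown level was 0.253 of control in MB and 0.320 in MT. The 10 myoblast markers examined all had reads, with a summed level of 896 and 1508 CPM in MB controls, 716 and 1620 CPM in MB knockdown, 3671 CPM in MT control and 1549 CPM in MT knockdown. The file names of MB replicate 1, control and knockdown, and of the 2 MT libraries share a mark that those of MB replicate 2 do not have, and the sources used here do not explain it. Fits are therefore given without and with a term for this mark. The common coefficient of variation between libraries was 32.9% without the term (2 residual degrees of freedom) and 9.74% with it (1 residual degree of freedom).

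Serpina1d gave most of the reads. It had 3 and 0 counts in MB control replicates 1 and 2, 75 and 144 in the MB knockdown replicates, 7 in the MT control and 462 in the MT knockdown library. In CPM this was 0.0715 and 0, 1.61 and 3.30, 0.140, and 12.7. The 3 knockdown libraries lay well above the 3 controls, and the MT knockdown library stood above both MB knockdown libraries. The knockdown-over-control ratio was 66.8 in MB (95% counting interval 22.5 to 326) and 90.7 in MT (43.7 to 227). All 3 MB control reads lay in replicate 1, where the ratio was 22.5, and replicate 2 had 144 knockdown reads against none.

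The other 4 Serpina1 genes had far fewer reads, again with the 3 knockdown libraries above the controls and MT knockdown highest. Serpina1a, listed as MB control 1 and 2, MB knockdown 1 and 2, MT control and MT knockdown, had 0, 0, 12, 12, 1 and 45 counts. Serpina1b had 0, 0, 8, 14, 1 and 42 counts. Serpina1c had 0, 0, 9, 12, 0 and 43 counts and was the only Serpina1 gene with no read in any of the 3 control libraries. For these 3 genes no MB control read was counted, so the MB ratios are lower bounds set by 3 counts over the group: at least 7.32-fold higher for Serpina1a, at least 6.71-fold for Serpina1b and at least 6.40-fold for Serpina1c. In MT, Serpina1c was at least 19.7-fold higher, while Serpina1a and Serpina1b each rested on a single control read, with ratios of 61.9 (10.6 to 2498) and 57.7 (9.81 to 2335).

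Serpina1e was the copy with the smallest ratio. It had 2 and 2 counts in the MB controls, 8 and 7 in MB knockdown, 3 in the MT control and 27 in its knockdown, so it was the one Serpina1 gene with reads in every control library. Its ratio was 3.43 in MB (1.09 to 14.2) and 12.4 in MT (3.81 to 63.7). Groups did not overlap in any of the 5 genes. Across the 16472 genes that passed the filter on low counts, 5.24% had all 3 knockdown libraries above all 3 controls. The 7 chosen genes are among them, which the way they were chosen made likely.

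Because the copies share reads, their sum is given too. It does not depend on how reads were split between copies, but it does depend on whether shared reads were counted. The Serpina1 sum was 5 and 2 counts in the MB controls, 112 and 189 in MB knockdown, 12 in the MT control and 619 in the MT knockdown library, or 0.119, 0.0492, 2.40, 4.33, 0.241 and 17.1 CPM. The MB ratio of the sums was 39.3 (18.9 to 98.6) and the MT ratio 70.9 (40.3 to 138). Between libraries of the same replicate number it was 20.1 (8.38 to 63.2) for replicate 1 and 88.0 (24.0 to 732) for replicate 2. The MB ratio rests on few control reads: it was 67.7 without MB control replicate 1. The 2 MB knockdown libraries differed from each other, with replicate 2 at 1.80 times replicate 1 (1.42 to 2.30), and Trim28 in replicate 2 at 0.661 times replicate 1. Whether these 2 differences are linked was not tested.

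**Figure D1:**
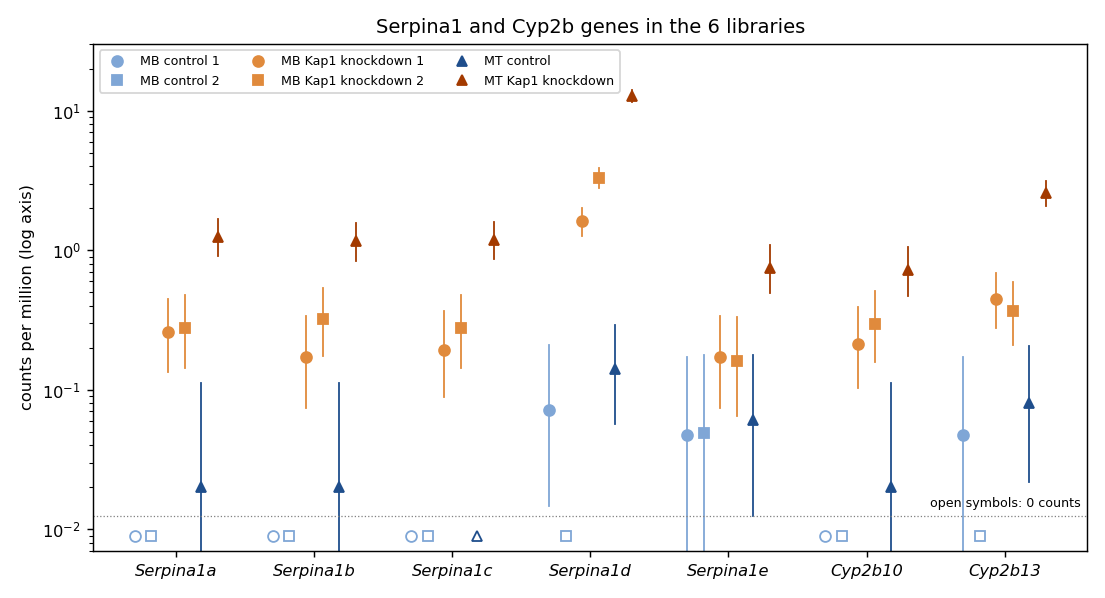
CPM on a log axis for the 7 genes in each of the 6 libraries, with bars for the exact 95% counting interval; open symbols below the dotted line stand for 0 counts. In each gene the 3 knockdown libraries (orange and brown) lie above the 3 control libraries (blue), and MT knockdown is the highest, reaching 12.7 for Serpina1d.

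Cyp2b10 and Cyp2b13 were also higher in the 3 knockdown libraries than in the 3 controls and highest in MT knockdown, at a lower level than Serpina1d. Cyp2b13 had 2 and 0 counts in the MB controls, 21 and 16 in MB knockdown, 4 in the MT control and 93 in the MT knockdown library, or 0.0477, 0, 0.450, 0.366, 0.0803 and 2.57 CPM. Its ratio was 16.9 in MB (4.36 to 145) and 32.0 in MT (12.1 to 120). Both MB control reads lay in replicate 1, where the ratio was 9.44 (2.31 to 83.1). Cyp2b10 had 0 and 0 counts in the MB controls, 10 and 13 in MB knockdown, 1 in the MT control and 26 in the MT knockdown library. It was at least 7.01-fold higher in MB knockdown, and 35.7-fold in MT (5.87 to 1466) against that single read.

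The Cyp2b sum was 2 and 0 counts in the MB controls, 31 and 29 in MB knockdown, 5 in the MT control and 119 in the MT knockdown library. The ratio was 27.4 in MB (7.27 to 232) and 32.7 in MT (13.6 to 103). Between MB replicates 1 it was 13.9 (3.55 to 120), and in MB replicate 2 the knockdown had 29 counts against none in the control. The MB ratio was also 13.9 with MB control replicate 2 left out. Unlike the Serpina1 sum, the Cyp2b sum was alike in the 2 MB knockdown libraries, at 0.664 CPM in both, with a ratio of 0.999 (0.581 to 1.71). Whether the knockdown ratios of the sums differ between MB and MT was not tested, since both stages served to choose the genes.

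MT against MB within knockdown cells was tested. The rule asked for reads in each knockdown library and set no difference between the stages, but it used the same knockdown counts, so these tests are not independent of the choice of genes. All 7 genes were higher in the MT knockdown library than in both MB knockdown libraries, as were 44.6% of the 16472 genes tested. For Serpina1e this was partly set in advance, since it passed the filter on low counts only through the MT knockdown library. The Serpina1 sum was 7.11 times MB knockdown replicate 1 (5.81 to 8.78) and 3.95 times replicate 2 (3.35 to 4.67), and the Cyp2b sum was 4.94 times each. For single genes the pooled ratio ran from 2.82 in Cyp2b10 (1.55 to 5.17) to 6.26 in Cyp2b13 (4.24 to 9.43), with the 5 Serpina1 genes between 4.49 and 5.26. Trim28 itself was at 0.802 of MB knockdown replicate 1 and 1.21 of replicate 2, so its level in the MT knockdown library lay between those of the MB knockdown libraries. In control cells the same step went from 5 and 2 counts to 12 for the Serpina1 sum and from 2 and 0 to 5 for the Cyp2b sum.

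**Figure D2:**
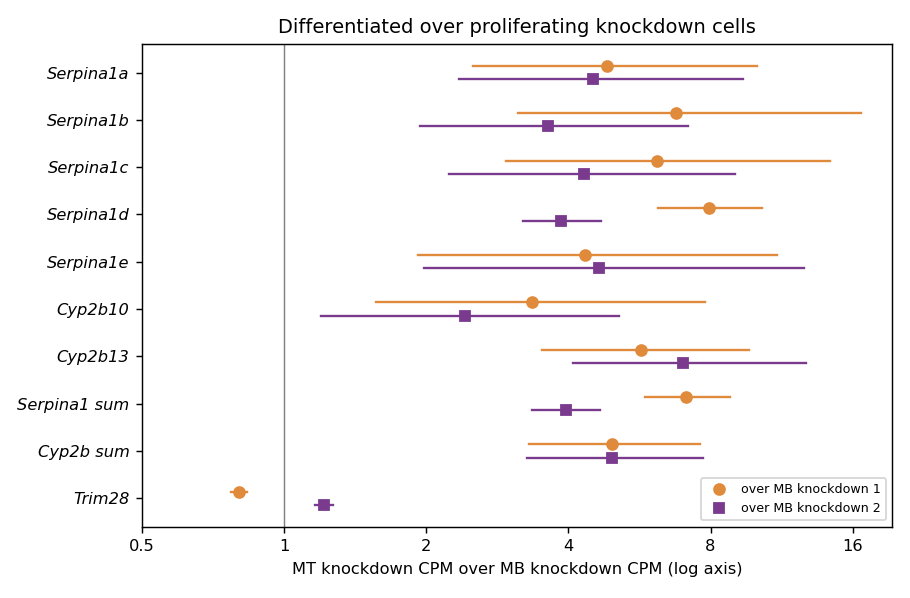
Ratio of CPM in the MT knockdown library over MB knockdown replicate 1 (circles) and replicate 2 (squares), on a log axis, with 95% counting intervals, for the 7 genes, the cluster sums and Trim28. All 7 genes and both sums lie to the right of 1 against both replicates, while Trim28 falls on either side of it at 0.802 and 1.21. Serpina1e passed the filter on low counts only through the MT knockdown library, so its ratios are a description.

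Whether this step passed the threshold depended on how the mark was handled and, for the Serpina1 sum, on the tool. Without the mark term, edgeR's quasi-likelihood test gave a log2 change of 2.24 for the Serpina1 sum (SE 0.55, adjusted p = 0.272) and of 2.21 for the Cyp2b sum (SE 0.75, adjusted p = 0.307). No gene of 16472 passed the adjusted threshold of 0.05 in that fit (0% called, 15.3% at an unadjusted p under the same value), and DESeq2 called 6.21% of the genes to which it gave an adjusted p. DESeq2 put the Serpina1 sum past the threshold (log2 change 2.23, adjusted p = 0.0299) and the Cyp2b sum not (2.20, adjusted p = 0.274). For single genes, DESeq2 did not put Serpina1d past it (2.26, adjusted p = 0.102) and gave no adjusted p for the other 6 of 7. With the mark term the change was 2.66 for the Serpina1 sum (SE 0.34, adjusted p = 0.000459) and 2.15 for the Cyp2b sum (SE 0.47, adjusted p = 0.00619), in a fit that called 33.1% of genes, 16.6% as higher. Among single genes in the fit with the term, Serpina1d was at 2.81 (adjusted p = 0.00324) and Cyp2b13 at 2.34 (adjusted p = 0.00541), while Cyp2b10 missed the threshold (1.65, adjusted p = 0.0803). In the fit without the term none of the 3 passed, with adjusted p of 0.336, 0.292 and 0.43. Serpina1e reached the filter on low counts only through the MT knockdown library, so its stage ratio is a description and no test is given for it. The MT group has 1 knockdown library, which is assumed to vary as the MB libraries do. Both MT libraries carry the mark, so with the term mark and stage are partly tied, and MT is set mainly against MB replicate 1. Without the term, the log2 change of the Serpina1 sum was 2.75 with MB knockdown replicate 2 left out. It was 1.87 with replicate 1 left out.

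Serpina1d took most of the reads of its cluster in every knockdown library. Its share was 67.0% in MB knockdown replicate 1 (Wilson 95% interval 57.8 to 75.0), 76.2% in replicate 2 (69.6 to 81.7) and 74.6% in MT knockdown (71.1 to 77.9). Over the 3 libraries it was 74.0%, with 7.50% for Serpina1a, 6.96% each for Serpina1b and Serpina1c, and 4.57% for Serpina1e. The intervals of each copy overlap between the libraries. Overlap of intervals is not a test of a difference, and a shift in the makeup of the cluster was not tested. Cyp2b13 took 67.7% of the Cyp2b reads in MB knockdown replicate 1 (50.1 to 81.4), 55.2% in replicate 2 (37.5 to 71.6) and 78.2% in MT knockdown (69.9 to 84.6), and Cyp2b10 the rest.

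**Figure D3:**
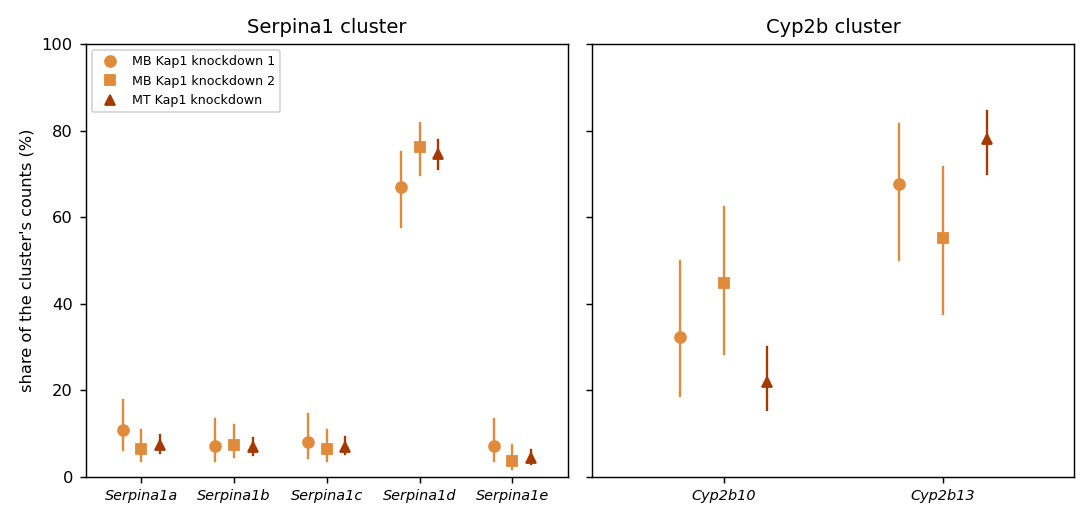
Share of each cluster's counts held by each gene in the 3 knockdown libraries, with Wilson 95% intervals. Serpina1d lies between 67.0% and 76.2% in all 3 libraries and the other 4 Serpina1 genes at or below 10.7%, and the Cyp2b intervals are wide because 1 cluster sum is as low as 29 counts.

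Levels can be compared between genes per length of annotated exon. In the MT knockdown library Serpina1d stood at 9.14 CPM per kilobase, Cyp2b13 at 1.37, Serpina1c at 0.872, Serpina1a at 0.678, Serpina1b at 0.480, Serpina1e at 0.461 and Cyp2b10 at 0.340. Serpina1d was the highest of the 7, and below it the counting intervals of each gene and the next in this order overlap. Reads that match several copies equally well blur this order. Of all 50-base windows of the Serpina1d transcript, 49.1% occur in no other annotated gene, against 32.6% for Serpina1a, 52.9% for Serpina1b, 20.7% for Serpina1c and 62.1% for Serpina1e. The Cyp2b genes are easier to separate, with 89.8% of windows unique in Cyp2b10 and 72.7% in Cyp2b13. The gene that shares most with Cyp2b13 is Gm45225, with 13.8% of its 50-base windows, and counts for Gm45225 are not given here. Per 1000 unique windows the MT knockdown level was 19.3 CPM for Serpina1d, 4.36 for Serpina1c, 2.49 for Serpina1a, 1.93 for Cyp2b13, 1.63 for Serpina1b, 0.962 for Serpina1e and 0.451 for Cyp2b10. Serpina1d kept the first place on this scale and Serpina1c moved above Cyp2b13. The scale per unique window assumes that shared reads were left out. The sources used here give neither the counting mode nor the length of the reads. No read was flagged as aligned to several places (0 in each library), so whether shared reads were removed before counting or counted is not known. Counts of single copies remain uncertain, and the sums avoid only the split between copies.

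Of 6 pseudogenes that lie between the Serpina1 genes, 3 had more than 1 read in a library. Gm17043 had 2 and 2 counts in the MB controls, 29 and 29 in MB knockdown, 1 in the MT control and 50 in the MT knockdown library. Gm8893 had 0, 0, 5, 11, 1 and 19 counts in that order, and Gm17042 had 0, 0, 0, 5, 0 and 6. In all 3, the MT knockdown library was the highest. The remaining 3 were at or near 0: Gm8895 had no read, Gm17198 had 1 in MT knockdown, and Gm6918 had 1 in MB knockdown replicate 2 and 1 in MT knockdown. Gm17043 and Gm8893 meet the same count limits as the 7 genes, so their counts are given as a description, with no test. Adding the pseudogenes to the Serpina1 sum, a choice made after seeing the data, gave a ratio of 31.7 in MB and 68.4 in MT. Whether these reads belong to the pseudogenes or to the neighbouring Serpina1 genes was not tested.

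The genes that flank the Serpina1 cluster did not share its order of libraries, which 5.24% of the genes tested had. On one side, Serpina6, which encodes corticosteroid-binding globulin, had 2, 0, 2, 0, 247 and 21 counts in the order used above, and Serpina16 had 0, 0, 1, 0, 44 and 6. The edgeR fit without the mark term called no gene in the MB or the MT knockdown contrast (0% each, with 2.76% and 8.4% at an unadjusted p under 0.05), and the fit with it called 3.84% and 20.3%. Both genes were lower in MT knockdown than in MT control. In edgeR with the mark term, the log2 change was -3.23 for Serpina6 (adjusted p = 0.00105) and -2.53 for Serpina16. Without the term, the unadjusted p of Serpina6 was 0.0574. Serpina16 reached the filter on low counts only through the MT control library, so its change is a description and no test is given. Serpina1f, the next gene along, had 1, 0, 5, 0, 7 and 1 counts and did not pass the filter. On the other side, Serpina11, Serpina9 and Serpina12 had at most 18 counts in any library.

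Among the neighbours examined, the Cyp2b genes had no such company in reads. Cyp2b9, next to Cyp2b13 and with a promoter that differs at 2 of 250 bases, had 1 count in MB knockdown replicate 2, 1 in MT knockdown and 0 in the other 4 libraries. Its coding sequence was 92.74% identical to that of Cyp2b13, and 88.8% of its 50-base windows are unique to it, more than the 72.7% of Cyp2b13. Cyp2a4, Cyp2b19 and Cyp2b23 had 0 counts in all 6 libraries. Cyp2s1, on the other side of Cyp2b10, had 8, 4, 11, 19, 6 and 5 counts and passed neither knockdown contrast in either edgeR fit.

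Most relatives of the 7 genes did not share their order of libraries, and neither did most genes tested. Of 20 other clade A serpins, 16 had any read and 10 were tested, and none had all 3 knockdown libraries above all 3 controls. Only 5.24% of all genes tested had that order, so its absence does not set these serpins apart. In the edgeR fit with the mark term, 1 of the 10 was called higher in MB (Serpina3g, an intracellular serpin, adjusted p = 0.0407) and 6 were called lower in MT with none higher. Over all genes, 2.5% were called higher and 1.34% lower in MB, and 9.09% higher and 11.2% lower in MT. The median log2 change of the 10 serpins in MT was -2.29, against 0.02 over all genes, and the fit without the term called none. Serpina16, Serpina3c and Serpina3m reached the filter on low counts only through the MT control library, which favoured lower values in MT knockdown. The median and the count of 6, which includes Serpina16 and Serpina3c, are therefore a description. Serpina3g was low in both libraries without the mark, with 155, 5, 401, 5, 1025 and 627 counts. Among 11 other genes of the Cyp2 cluster on chromosome 7, 6 had any read, 3 were tested and none was called in either knockdown contrast. The highest was Cyp2f2, at 0, 0.0246, 0, 0.412, 1.52 and 1.71 CPM. Of 49 further P450 genes found in the files, 13 were tested and none was called higher by edgeR in either contrast and fit. Cyp4a12a, a liver P450 too low to be tested, was the only one with all knockdown libraries above all controls, at 0, 0, 5, 2, 0 and 7 counts. Over the genes tested, 5.24% had that order. With the mark term 2 were called lower in MB (Cyp26b1 and Cyp51) and 3 in MT (Cyp26a1, Cyp26b1 and Cyp27a1). Cyp27a1 reached the filter on low counts only through the MT control library, so its call is a description.

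Most other genes typical of hepatocytes were low in all libraries. Of 44 genes for secreted liver proteins, 10 had 0 counts in all libraries, among them Alb (albumin), Ttr (transthyretin) and Fgb (a fibrinogen chain), and 14 were tested. Their summed level was 9.39 and 6.32 CPM in the MB controls, 14.3 and 6.69 in MB knockdown, 8.41 in the MT control and 12.6 in the MT knockdown library, so the groups overlapped. With the mark term 2 of the 14 were called higher in MB (2.5% over all genes), both heavy chains of inter-alpha-trypsin inhibitor. Itih1 had 0, 1, 21, 6, 4 and 18 counts (log2 change 4.26 in MB). It meets the count limits that define the 7 genes, the only one of the list to do so. It also reached the filter on low counts only through knockdown libraries, so its call is a description. In MB knockdown replicate 1 it was at the level of Cyp2b13, 0.450 CPM, and Itih2 stood at 1.53, 0.517, 5.02, 1.33, 2.99 and 5.10 CPM (1.55, adjusted p = 0.0089). Serpind1 (heparin cofactor II), at 2, 3, 4, 9, 1 and 5 counts, was with Itih1 the other gene of the list whose knockdown libraries all lay above the controls. Among the 16472 genes tested, 5.24% had that order. In MT the fit with the mark term called 1 lower (F2, prothrombin) and none higher, against 11.2% and 9.09% over all genes. F2 reached the filter on low counts only through the MT control library, so its call is a description. The median log2 change of the list was 0.63 in MB and 0.43 in MT.

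Regulators of liver genes were not called higher by edgeR in either knockdown contrast. Of 29, 6 had 0 counts in all libraries, including Hnf4a and Foxa1, and 17 were tested. Nr1i3, which encodes CAR, had 11, 8, 6, 5, 17 and 11 counts, and Foxa2, a forkhead factor, had 25, 17, 63, 11, 9 and 25. None was called in MB in either fit, and in MT with the mark term 2 were called lower, the transcriptional repressor Bcl6 (log2 change -1.62, adjusted p = 4.6e-05) and the coactivator Ppargc1a (-1.52, adjusted p = 0.031). Over all genes, the fit with the mark term called 2.5% higher in MB, and 9.09% higher and 11.2% lower in MT. The fit without it called no gene. Few higher calls would be expected among 17 genes at these shares, so their absence does not set the list apart. The median log2 change of the list was 0.02 in MB and -0.30 in MT. The list summed to between 280 and 409 CPM, mostly from broadly expressed members such as Rxra, the partner of CAR, and Tef.

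**Figure D4:**
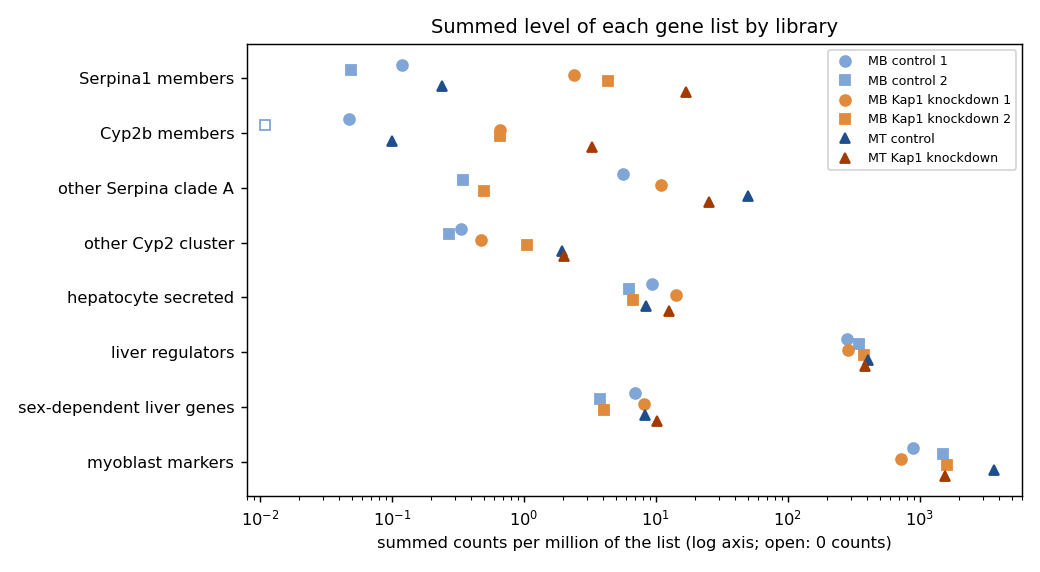
Summed CPM of each gene list in each of the 6 libraries, on a log axis, with an open symbol for 0 counts. The knockdown and control libraries are apart in the 2 chosen groups, and they overlap in the other clade A serpins, the other Cyp2 genes, secreted hepatocyte proteins, liver regulators, sex-dependent liver genes and myoblast markers.

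Among 25 genes tied to sex-dependent expression in mouse liver, as targets or regulators, 9 had 0 counts in all libraries and 6 were tested. Rsl1, a regulator and not itself a sex-dependent product, stood at 2.46, 1.53, 3.45, 1.37, 1.93 and 5.27 CPM and was the only one called, higher in MT with the mark term (log2 change 1.31, adjusted p = 0.0224). That fit called 9.09% of all genes higher in MT. The median log2 change of the list was 0.37 in MB and -0.30 in MT. Of 16 proteases that antitrypsin or its relatives can inhibit, 6 were tested. In MT with the mark term, edgeR called Cela1, an elastase, higher (0.62, adjusted p = 0.0316), and Ctrb1, a chymotrypsinogen, and Plat, tissue plasminogen activator, lower (-3.93 and -0.65). None was called in MB. Over all genes, the fit with the mark term called 9.09% higher and 11.2% lower in MT.

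Markers of other cells were also read beside the 2 groups. The 8 blood and macrophage markers in the files summed to 15.7 and 13.4 CPM in the MB controls, 14.7 and 11.5 in MB knockdown, 9.03 in the MT control and 17.2 in the MT knockdown library. In MT with the mark term Cd14 and Lyz2 were called higher and Itgam lower. That fit called 9.09% of all genes higher and 11.2% lower. Itgam reached the filter on low counts only through the MT control library, so its call is a description. Lyz2 had 10 counts in the MT control and 118 in the MT knockdown, and Adgre1 had 0 counts in all libraries. The 8 epithelial markers summed to 1.24 and 2.14 CPM in the MB controls, 1.24 and 2.15 in MB knockdown, 0.682 in the MT control and 1.41 in the MT knockdown library, and of 4 tested none was called. All knockdown libraries lay above all controls in 2 of the 8: Ocln (occludin) had 7, 9, 21, 20, 7 and 21 counts and Cdh1 (E-cadherin) 2, 3, 4, 6, 3 and 9. Of the 16472 genes tested, 5.24% had all knockdown libraries above all controls. Whether these markers have a part in the level of the Serpina1 and Cyp2b genes was not tested. Of the 9 myoblast markers tested, 4 were called lower in MT knockdown with the mark term, among them Des (desmin, -1.27) and Chrna1 (-2.01), and none in MB. Over all genes, 11.2% were called lower in MT and 1.34% in MB. Whether the lower level of muscle genes in MT knockdown has a part in the level of the Serpina1 and Cyp2b genes was not tested.

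The 2 cluster sums had similar profiles over the 6 libraries (Pearson r of log2(CPM + 0.1) = 0.990). These libraries fall into control and knockdown clusters and the genes were chosen on that split, so the value only describes it. By the same measure over the same 6 libraries, the genes most like the Serpina1 sum were Ppfia3 (r = 0.993), Trhr, ENSMUSG00000092623 (no symbol), Rex2 and Zfp575 (r = 0.988), members left out. Those most like the Cyp2b sum were Fkbp8 (r = 0.997), ENSMUSG00000092623, Vmn2r96, Zfp345 and Fbxo7 (r = 0.989). Likeness here is in the order of libraries and not in size. Fkbp8 went only from 122 CPM in its lowest control to 154 CPM in MT knockdown. Trhr, a receptor for thyrotropin-releasing hormone, and Vmn2r96, a vomeronasal receptor gene, came closer in size, with 2, 0, 10, 16, 2 and 24 counts for Trhr and 2, 2, 43, 41, 11 and 146 for Vmn2r96.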

How the data were processed

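RNA sequencing of 6 C2C12 libraries was used as deposited: whole-number read counts per Ensembl gene, made by the authors with TopHat2 2.0.11 and HTSeq on mm9, per the submitters' processing notes. The sources used here give no annotation release, counting mode or strand setting. Reads assigned to no gene were dropped from library sizes (reads outside genes 5.18% to 8.07%, ambiguous 2.81% to 2.93%). Reads flagged as aligned to several places numbered 0 in each library. Symbols were found for 32919 of 37991 identifiers.

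Levels are counts divided by the library's total on genes, in CPM. Ratios pool the counts of a group and carry exact binomial 95% intervals, and these intervals and the 3-count floor cover counting error only. Tests used edgeR 4.0.16 in R 4.3.3 (quasi-likelihood, robust, TMM scaling, filterByExpr by group, Benjamini-Hochberg adjustment over all 16472 genes tested, two-sided, threshold 0.05), with all 6 libraries in 1 fit and no covariate, or with a term for the mark in the file names, and were tested on simulated data. Cluster sums replaced their members as 1 row each. DESeq2 1.42.0, other scalings, no filter, and leaving out each MB replicate were alternatives. Sequences were aligned with MAFFT 7.526, and uniqueness was counted over GENCODE M21 transcripts.

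The 7 genes, the gene lists and the tests were chosen with earlier results of these data known. Genes named besides them are Trim28, up to 4 per list with the highest knockdown CPM or the smallest p in a knockdown contrast, up to 5 neighbours each way and the 5 of most similar pattern. Outside this rule, Foxa2, genes at 0, Cyp4a12a, Serpind1, pseudogenes between the members and 1 neighbouring relative were named after their values were seen. So were Serpina3c and Serpina3m. Gm45225 was named for the windows it shares with Cyp2b13. 4 P450 genes and 1 blood marker of the lists were not matched by symbol and are not used here. Results for some genes of the lists are not reported here.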

Additional observations from a re-analysis of the deposited data

How the results depend on the processing

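Depth limits the control levels: at most 12 reads per cluster and control library were counted, so ratios are imprecise upward. MT has 1 library per arm. MB control and MB knockdown share replicate numbers, which go with the mark in the file names, and no label says that a number stands for a shared culture or day. Across 16472 genes, replicate 2 minus replicate 1 correlated between control and knockdown (r = 0.825), which may be read as a hint from the data only, with 2 pairs. With the replicate block, which equals the term for the file-name mark, edgeR called 632 genes in MB, 3344 in MT and 5446 for MT against MB in knockdown cells, where the fit without it called 0. DESeq2 called 53, 361 and 841. With no filter beyond 1 count, edgeR called 2 genes for MT against MB. For that contrast the block put both cluster sums past the threshold (log2 change 2.66 for Serpina1 and 2.15 for Cyp2b), and DESeq2 did so for Serpina1 (2.23, adjusted p = 0.0299) but not for Cyp2b (2.20, adjusted p = 0.274). The cause of these differences was not tested.

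Leaving out each MB replicate in turn, no gene was called in any contrast by the edgeR fit without the block. The Serpina1 sum changed by 1.87 to 2.75 and the Cyp2b sum by 2.19 to 2.23 (log2), on the same side of the threshold. The MB knockdown ratio ranged from 28.0 to 67.7 for Serpina1 and from 13.9 to 27.4 for Cyp2b. Leaving out MB control replicate 1 gave no Cyp2b ratio, since no control read remained. By single library, the share of Serpina1a was 10.7%, of Serpina1d 67.0% and of Serpina1e 7.14% in MB knockdown replicate 1, and that of Cyp2b10 was 44.8% in replicate 2. TMM-scaled ratios were 38.5 and 64.5 for Serpina1 and 26.9 and 29.8 for Cyp2b, in MB and MT. No result changed direction under the alternatives run.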
